A study of Mus musculus with 10 samples.

Results

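The genes described here make, modify and break down ceramides and fatty acids, the lipids that seal the epidermis. They are 42 genes of 18194 on the array, chosen by pathway: 5 of fatty acid synthesis and desaturation, 6 fatty acid elongases, 11 of ceramide synthesis, 5 of acylceramide formation and fatty acid hydroxylation, 8 of ceramide conversion and breakdown, 4 lipoxygenases and 3 of lipid transport and triglyceride synthesis. All 42 were measured, by 86 probe sets in total, and the log2 values of the probe sets of a gene were averaged (16 genes have 1 probe set and the others up to 6). The mRNA was measured on Affymetrix GeneChip arrays of the mouse genome in cultured primary keratinocytes of newborn mice, with FVB as the labelled strain of every sample. Undifferentiated keratinocytes (2 arrays) stayed in 0.05 mM calcium, and differentiated keratinocytes (4 arrays) spent 2 days in 0.4 mM calcium. In 2 further arrays differentiated keratinocytes expressed A-C/EBP, a dominant negative protein that binds C/EBP transcription factors and keeps them off DNA, and in 2 arrays differentiated keratinocytes had been grown with 1 µM 5-azacytidine (5-AZA), an inhibitor of DNA methylation. The A-C/EBP transgene is under tetracycline control and was switched on by taking doxycycline out of the medium before the calcium was raised; whether the differentiated controls carried the transgene or saw doxycycline is not stated. Neither the labels nor the methods say whether replicates are separate cultures or litters, so a p-value here speaks only of the spread among these arrays, which may be technical. With 2 to 4 arrays per condition, precision is low.

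Ceramides are built from serine and a fatty acyl chain in the endoplasmic reticulum. In the epidermis a class with very long, omega-hydroxylated acyl chains, the acylceramides, is packed as glucosylceramide into lamellar granules. It is released at the top of the granular layer, turned back into ceramide and in part oxidised by lipoxygenases and bound to the cornified envelope. Mutations in many of these genes cause ichthyosis or a lethal loss of the skin barrier. Keratinocytes in raised calcium form junctions and start to differentiate, but a submerged culture makes no complete stratum corneum.

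The deposited log2 values were similar in scale between arrays, with a median probe set at 4.64 to 4.78. Replicates correlated at r = 0.990 to 0.996 across genes, which are not independent replicates. The hybridization controls, RNA added at the bench, averaged 11.34 in A-C/EBP replicate 2 and 9.03 to 10.59 in the other arrays. A probe set of 18S ribosomal RNA varied widely, from 6.01 in differentiated replicate 3 to 14.18 in A-C/EBP replicate 2. It was at 9.24 in A-C/EBP replicate 1 and at 14.14 and 11.80 in the undifferentiated arrays. What lies behind this variation was not tested. All 12 keratinocyte markers lay above the median probe set in every array, while 5 of 9 adipocyte markers, Adipoq and Lep among them, lay below it in every array and Retn lay above it in every array (5.20 to 5.77). Lpl, another adipocyte marker, lay above it in every array but A-C/EBP replicate 2 (4.22). Markers of other cells were also present. Above it in every array lay 9 of 11 melanocyte markers, with a log2 summed level of 11.85 to 12.84. The same held for 14 of 20 fibroblast markers and 6 of 15 immune markers. The log2 of the summed level of 11 sebocyte markers (the lipid gene Elovl5 is one of them) was 11.81 to 11.96 in undifferentiated, 12.96 to 13.49 in differentiated, 12.33 to 12.73 in A-C/EBP and 13.29 to 13.71 in 5-AZA arrays, although Mc5r, Pparg and Far2 of that list lay below the median probe set throughout. The lipid droplet gene Plin2 was the brightest of the 11 in every array and weighs most in this sum. The part of such markers in the lipid gene results was not tested. The arrays measure bulk RNA, so fewer cells of a type and less RNA per cell cannot be told apart. Of the 42 lipid genes, 34 lay above the median probe set in every array and 4 in some arrays (Acer1, Sphk1, Alox12 and Alox12b). Elovl3, Cers4, Fa2h and Alox15 lay below it in all 10 arrays, and their signal is not shown to exceed background.

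The study asked which promoters C/EBPβ, CREB and the AP-1 component c-Jun occupy in keratinocytes, and how this and promoter methylation relate to mRNA changes upon differentiation. The promoters of 4 genes on which the results below turn are therefore shown, each from 250 bases before to 50 bases after the start site, from RefSeq (build GRCm38.p6). RefSeq promoters were at hand for 33 of the 42 genes, 47 promoters in all. The motifs searched on both strands were TTGCGCAA and the looser TTGCNNAA of C/EBP, TGACTCA of AP-1 and TGACGTCA of CREB, where every TTGCGCAA is also a TTGCNNAA. TGACGTCA stood in 1.79% of 32851 promoters of the same length and in 1 of the 33 genes, Elovl5. TTGCNNAA stood in 10.8% of promoters and in 3 genes (Cers2, Pnpla1 and Sptlc3), TGACTCA in 5.2% and in 3 genes (Sgms1, Sgms2 and Sphk1), and TTGCGCAA in 0.18% and in none. A match describes letters only and says nothing of binding. In the promoter of Elovl5 at chr9:77917115-77917414 (plus strand) the capitals mark TGACGTCA, which begins 3 bases after the start site. In that of Cers2 at chr3:95318580-95318879 (plus strand), 1 of 2 promoters of that gene, they mark TTGCNNAA on the opposite strand, 95 bases before and 7 bases after the start site. In those of Elovl4 at chr9:83806256-83806555 and Smpdl3b at chr4:132757122-132757421 (both minus strand) they mark each CpG, the site of DNA methylation.
Elovl5: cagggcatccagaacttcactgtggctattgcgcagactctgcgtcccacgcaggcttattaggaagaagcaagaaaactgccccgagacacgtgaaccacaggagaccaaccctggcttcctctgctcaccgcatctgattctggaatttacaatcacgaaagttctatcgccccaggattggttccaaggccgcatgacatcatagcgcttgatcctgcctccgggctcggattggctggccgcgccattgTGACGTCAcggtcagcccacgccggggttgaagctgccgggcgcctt
Cers2: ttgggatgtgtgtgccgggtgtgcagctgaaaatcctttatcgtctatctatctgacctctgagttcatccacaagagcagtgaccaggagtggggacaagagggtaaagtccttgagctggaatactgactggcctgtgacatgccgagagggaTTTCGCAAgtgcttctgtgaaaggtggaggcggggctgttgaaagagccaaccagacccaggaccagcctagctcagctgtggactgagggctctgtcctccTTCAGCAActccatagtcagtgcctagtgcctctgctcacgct
Elovl4: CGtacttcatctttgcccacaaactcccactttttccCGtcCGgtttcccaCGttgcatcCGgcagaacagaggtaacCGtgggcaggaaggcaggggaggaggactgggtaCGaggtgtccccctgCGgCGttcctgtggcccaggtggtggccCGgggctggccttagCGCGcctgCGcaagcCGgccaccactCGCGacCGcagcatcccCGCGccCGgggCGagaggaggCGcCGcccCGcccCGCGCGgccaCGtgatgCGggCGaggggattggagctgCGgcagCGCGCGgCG
Smpdl3b: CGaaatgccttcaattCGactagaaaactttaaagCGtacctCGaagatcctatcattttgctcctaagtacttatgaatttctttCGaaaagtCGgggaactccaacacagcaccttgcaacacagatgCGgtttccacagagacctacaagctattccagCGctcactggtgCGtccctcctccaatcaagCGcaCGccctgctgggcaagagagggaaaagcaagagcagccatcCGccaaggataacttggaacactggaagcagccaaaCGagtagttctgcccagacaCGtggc
The window of Elovl4 held 35 CpG, that of Elovl5 20, that of Smpdl3b 14 and the one of Cers2 6. The other promoter of Cers2, at chr3:95314940-95315239, held 30 CpG and no TTGCNNAA. The median was 15 over the 47 promoters of the lipid genes (1 to 53) and 7 over all 32851 promoters (0 to 67).

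Upon differentiation the lipid genes moved in both directions. Of the 42 genes, 6 rose, where 6.64% of all genes rose, and 6 fell, where 9.13% of all genes fell (limma adjusted p under 0.05). Scd1, Slc27a4, Elovl7, Cers2, Alox12 and Cyp4f39 rose, and Degs2, Acer1, Alox12b, Elovl5, Smpd1 and Degs1 fell. The median log2 difference of the 42 genes was 0.09, beside −0.01 over all genes, and 20 had an unadjusted p under 0.05 (25.8% of all genes did). Arrays of the 2 conditions did not overlap for 22 of the 42 genes (52.4%), beside 34.1% of all genes. By over 0.5 on the log2 scale, 8 were higher and 5 lower (7.23% and 8.87% of all genes). The calls of Scd1, Slc27a4, Acer1 and Alox12b held in every alternative limma fit that gave a value for them, those without each array in turn included. The threshold of 0.5 is the one the paper states for mRNA changes upon differentiation. With each gene tested on its own with equal variances, 1 gene rose and 0 fell after adjustment.

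**Figure D1:**
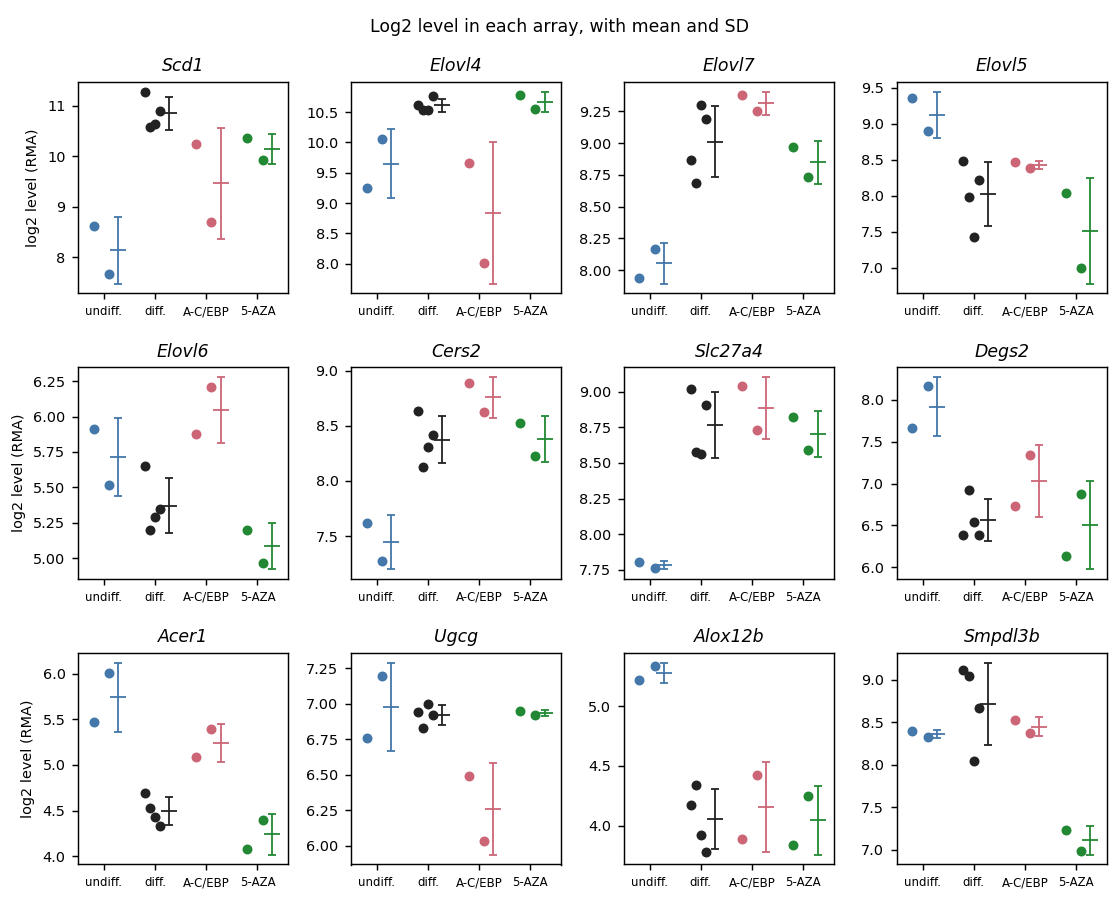
Log2 level (RMA) of 12 lipid genes in each array (points) of undifferentiated (n = 2), differentiated (n = 4), A-C/EBP (n = 2) and 5-AZA (n = 2) keratinocytes, with bars for mean and SD. Scd1 lies at 7.67 and 8.61 in undifferentiated arrays and at 10.58 to 11.28 in differentiated ones, and Smpdl3b at 6.99 and 7.23 with 5-AZA.

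Scd1, the desaturase that turns saturated into monounsaturated fatty acids, had the largest change of the 42 genes. Its log2 level was 8.61 and 7.67 in the undifferentiated arrays and 11.28, 10.58, 10.63 and 10.89 in the differentiated arrays. Every differentiated array was above both undifferentiated ones, and Scd1 rose 6.51-fold (log2 difference 2.70, SE 0.40, adjusted p = 0.00137). Both of its probe sets were higher, by 2.94 and 2.46. The other genes of fatty acid synthesis did not pass the test. Fasn, the fatty acid synthase, had a log2 difference of −0.05 (SE 0.24) and Acaca, which makes its malonyl substrate, of −0.04 (SE 0.16). The front-end desaturases of polyunsaturated fatty acids, Fads1 and Fads2, had −0.30 and −0.35.

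The elongases, which add carbon units to fatty acyl chains, did not move together. Elovl7, an elongase of long saturated and monounsaturated chains, was at 7.94 and 8.17 in undifferentiated and at 8.87, 8.69, 9.30 and 9.19 in differentiated arrays. The groups did not overlap and Elovl7 rose 1.95-fold (0.96, SE 0.17, adjusted p = 0.00357), with all 6 of its probe sets higher, by 0.53 to 1.24. Its call was lost without undifferentiated replicate 1 (0.58, adjusted p = 0.0541). Elovl5, which elongates polyunsaturated chains, went from 9.35 and 8.89 to 8.48, 7.98, 7.43 and 8.21. The groups were apart, but the differentiated arrays spread widely, and Elovl5 fell by 1.09 (SE 0.32, adjusted p = 0.0436). This call was lost in 9 of 18 alternative limma fits, among them the omission of either undifferentiated array, of either A-C/EBP array and of differentiated replicate 2, 3 or 4. Elovl4, which makes the ultra-long chains of acylceramides, was at 9.25 and 10.05 in undifferentiated and at 10.61, 10.54, 10.54 and 10.77 in differentiated arrays. All differentiated arrays were higher, by a mean of 0.96 (SE 0.37), which did not pass in the fit of all arrays (adjusted p = 0.127). It passed in a fit without either A-C/EBP array (adjusted p = 0.01 in both cases); the values of Elovl4 in these arrays lie far apart and enter the shared spread. Elovl1, an elongase of saturated very long chains, had a log2 difference of 0.44 (adjusted p = 0.0929), and Elovl6, which lengthens palmitate, of −0.35 (adjusted p = 0.225). Elovl3 was not shown to exceed background.

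Among the genes of ceramide synthesis, a synthase rose and both desaturase genes fell. Cers2, the ceramide synthase that joins very long acyl chains to the sphingoid base, was at 7.62 and 7.27 in undifferentiated and at 8.64, 8.13, 8.31 and 8.42 in differentiated arrays. The groups did not overlap and Cers2 rose by 0.93 (SE 0.16, adjusted p = 0.00353). Its call was lost without undifferentiated replicate 2 (adjusted p = 0.0503), and its single probe set left it without a value where probe sets that may match several transcripts were dropped. Cers3, the synthase for ultra-long chains in the epidermis, had a log2 difference of 0.33 (SE 0.16, adjusted p = 0.247), Cers5 of −0.12 and Cers6 of −0.42. Degs2, which hydroxylates dihydroceramide to phytoceramide, was at 7.67 and 8.17 before and at 6.39, 6.92, 6.54 and 6.39 after differentiation. The lowest undifferentiated value lay above the highest differentiated one, and Degs2 fell by 1.36 (SE 0.26, adjusted p = 0.00494), a call lost without undifferentiated replicate 2 (adjusted p = 0.0642). Degs1, which places the double bond of ceramide, was at 11.28 and 11.35 and then at 10.99, 10.78, 11.02 and 10.91. It fell by 0.39 (SE 0.11, adjusted p = 0.0382), a small change beyond the spread of replicates whose call was lost without either undifferentiated array and without differentiated replicate 1, 2 or 4. The subunits of serine palmitoyltransferase, the first enzyme of the pathway, had differences of 0.14 (Sptlc1), 0.28 (Sptlc2) and 0.29 (Sptlc3), and the reductase Kdsr of 0.09. None of these passed the test as gene averages. With the brightest probe set of each gene alone, Sptlc2 (0.47) and Sptlc3 (0.66) rose, while Sptlc1 (0.30) and Kdsr (0.45) did not pass.

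Of the 5 genes of acylceramide formation and fatty acid hydroxylation 2 rose and none fell. The group's differences ran from 0.01 for Fa2h, whose signal is not shown to exceed background, to 0.98. Of all 18194 genes, 8735 had a difference above 0. Slc27a4, a fatty acid transporter and acyl-CoA synthetase whose loss gives newborn mice a tight, thick skin, was at 7.80 and 7.76 in undifferentiated and at 9.02, 8.58, 8.56 and 8.91 in differentiated arrays. The undifferentiated arrays nearly coincide and lie below all others, and Slc27a4 rose 1.98-fold (0.98, SE 0.16, adjusted p = 0.00191). Cyp4f39, the mouse counterpart of the human omega-hydroxylase CYP4F22, was at 8.54 and 8.99 and then at 9.34, 9.11, 9.28 and 9.36. The groups did not overlap and Cyp4f39 rose by 0.51 (SE 0.14, adjusted p = 0.0286), a call lost without undifferentiated replicate 1 and without differentiated replicate 1, 3 or 4. Pnpla1, the transacylase that completes acylceramide, had a log2 difference of 0.17 (SE 0.23), and its cofactor Abhd5 of 0.38 (SE 0.13, adjusted p = 0.0925). With the brightest probe set of each gene alone Abhd5 rose (0.58).

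Of the 8 genes that convert or break down ceramide, Acer1 and Smpd1 fell and none rose. Acer1, the alkaline ceramidase of the epidermis, was at 5.47 and 6.01 in undifferentiated and at 4.69, 4.53, 4.43 and 4.33 in differentiated arrays. Acer1 lay below the median probe set in differentiated replicates 2, 3 and 4, and it fell by 1.25 (SE 0.17, adjusted p = 0.000909), by 1.69 in one probe set and 0.81 in the other. Smpd1, the acid sphingomyelinase that releases ceramide from sphingomyelin, was at 6.79 and 6.85 and then at 6.45, 6.23, 6.36 and 6.36. It fell by 0.47 (SE 0.09, adjusted p = 0.00671) with no overlap between the groups, and lost its call without either undifferentiated array. Sgms2, a sphingomyelin synthase, was at 5.80 and 5.33 in undifferentiated and at 6.40, 5.87, 5.86 and 6.36 in differentiated arrays, with a log2 difference of 0.56 (SE 0.21, adjusted p = 0.117). Asah1, the acid ceramidase of lysosomes, had 0.38 (adjusted p = 0.0958), Smpdl3b, a membrane-bound relative of acid sphingomyelinase, 0.35 (adjusted p = 0.474), and Sphk1, which phosphorylates sphingosine, 0.21. Ugcg, the glucosylceramide synthase, had −0.06 (SE 0.15) and Sgms1 0.03 (SE 0.15).

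The lipoxygenases diverged. Alox12b, which starts the oxidation of the linoleate in acylceramides, was at 5.22 and 5.34 in undifferentiated arrays and at 4.17, 4.34, 3.92 and 3.78 in differentiated arrays, where it lay below the median probe set. It fell by 1.23 (SE 0.20, adjusted p = 0.00197). Values this low are close to background, which bounds how far the level can be seen to fall. Aloxe3, which acts on its product, had a log2 difference of −0.40 (SE 0.18, adjusted p = 0.195). Alox12, the platelet-type lipoxygenase, was at 3.92 and 3.73 and then at 4.5, 4.44, 4.89 and 4.69, and lay below the median probe set in every array but differentiated replicates 3 and 4. Alox12 rose by 0.81 (SE 0.16, adjusted p = 0.00642), by 1.27 in its brighter and 0.34 in its dimmer probe set. Its call was lost without undifferentiated replicate 2 (adjusted p = 0.0713).

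Abca12, the lipid transporter of lamellar granules, was the gene with the widest spread among undifferentiated arrays, at 4.92 and 6.37. In differentiated arrays it was at 4.83, 5.70, 4.8 and 4.72, and its difference of −0.63 (SE 0.40, adjusted p = 0.403) turned to 0.09 without undifferentiated replicate 2. In that array the suprabasal keratins Krt1 (10.98) and Krt10 (9.96) were also higher than in undifferentiated replicate 1 (9.18 and 8.33). Both keratins were lower in every differentiated array, Krt1 only just, at 8.38 to 9.17, and Krt10 at 7.60 to 8.10. Of the 12 keratinocyte markers, 10 had a difference below 0 upon differentiation and 2 above, where 9459 of all 18194 genes lay below 0. Of the 12, 3 fell and 0 rose. The part of these markers in the result was not tested. Among the genes that fell, Degs2 (8.17 against 7.67) and Acer1 (6.01 against 5.47) were also higher in undifferentiated replicate 2 than in replicate 1. So, by less, were Alox12b (5.34 against 5.22), Smpd1 (6.85 against 6.79) and Degs1 (11.35 against 11.28). Only Elovl5 was lower (8.89 against 9.35). Dgat1 and Dgat2, which make triglycerides, had differences of −0.27 (adjusted p = 0.163) and 0.35 (adjusted p = 0.282). With the brightest probe set of each gene alone Dgat1 fell (−0.45).

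**Figure D2:**
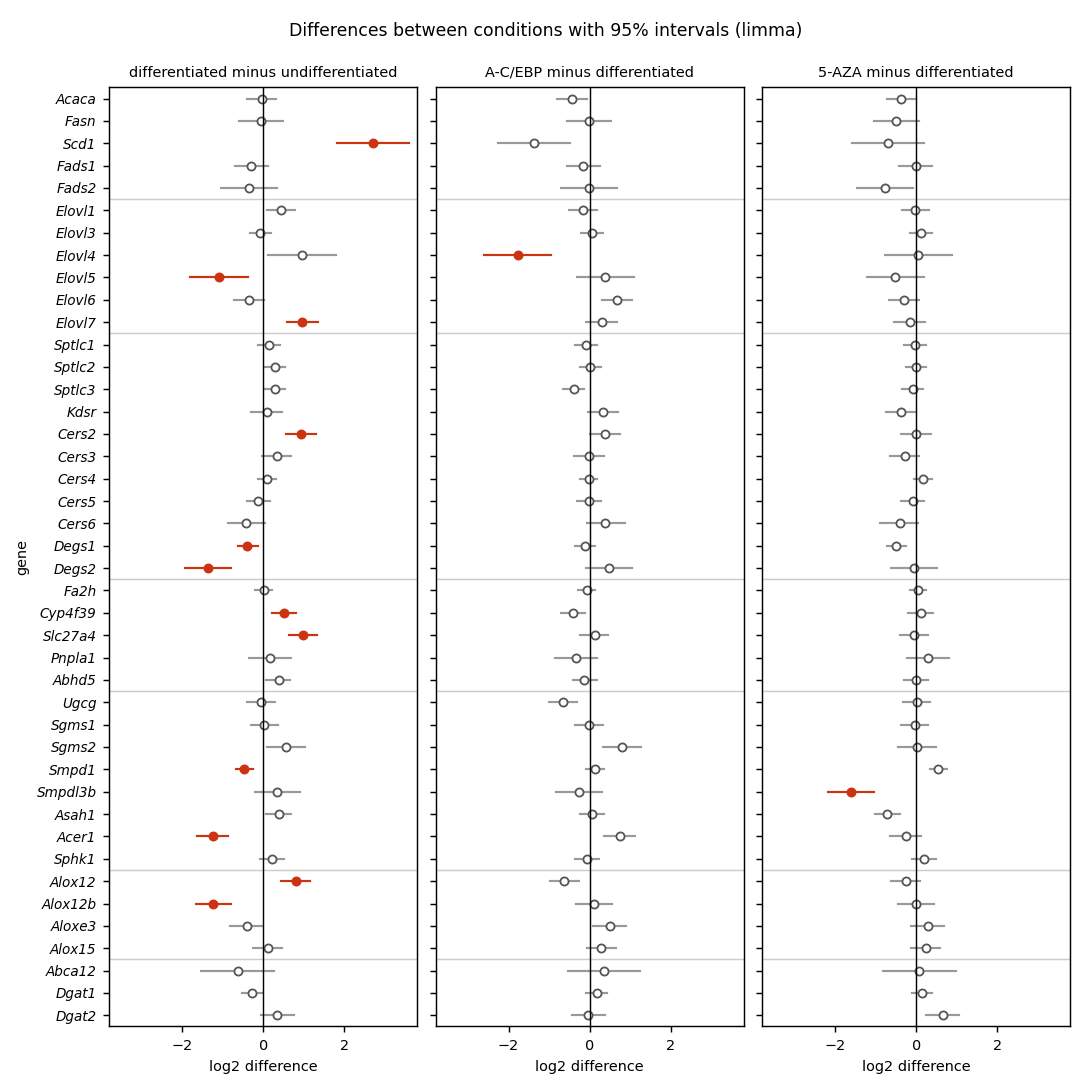
Log2 difference (points) with its 95% interval from limma (lines) for each of the 42 genes, in the order of the pathway groups, in 3 comparisons that share the 4 differentiated arrays. Filled red points passed at an adjusted p under 0.05, 12 upon differentiation, 1 with A-C/EBP (Elovl4) and 1 with 5-AZA (Smpdl3b).

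With A-C/EBP, 1 of the 42 genes fell, where 0.583% of all genes fell, and none rose, where 1.49% of all genes rose (limma). At an unadjusted p under 0.05 there were 12 of the 42 genes in both directions (13.6% of all genes), 3 were higher and 4 lower by over 0.5 (3.7% and 3.03% of all genes), and arrays did not overlap for 12 (21.4% of all genes). The median log2 difference was −0.01 over the 42 genes and 0.01 over all genes, and 21 of the 42 lay within 0.25 of 0. The 4 differentiated arrays that serve as controls here are those compared above with undifferentiated keratinocytes. Elovl4 was the gene that fell, at 9.66 and 8.01 with A-C/EBP against 10.54 to 10.77 in the controls. Both A-C/EBP arrays were below all controls and replicate 2 far below replicate 1, and Elovl4 was 3.43-fold lower (−1.78, SE 0.37, adjusted p = 0.0423), in both probe sets alike (−1.70 and −1.86). Without A-C/EBP replicate 2, the array with the high hybridization controls, the difference was −0.95 (adjusted p = 0.235). The call was lost in 10 of 18 alternative limma fits, among them the omission of any 1 differentiated array or any 1 5-AZA array, where the difference was −1.80 to −1.73.

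Other lipid genes were lower with A-C/EBP without passing the test. Scd1 was at 10.24 and 8.69 against 10.58 to 11.28 in the controls, again lowest in A-C/EBP replicate 2, with a log2 difference of −1.37 (SE 0.40, adjusted p = 0.136). It was −0.60 without A-C/EBP replicate 2 and passed without replicate 1 (−2.15, adjusted p = 0.0195). Ugcg was at 6.49 and 6.03 against 6.83 to 7.0, with −0.66 (SE 0.15, adjusted p = 0.0606). Its probe sets had −1.08, −0.87, −0.73 and, in the dimmest, 0.03. Ugcg passed with quantile normalization but not with median centring. Alox12 had −0.63 (adjusted p = 0.084), Cyp4f39 −0.41 (adjusted p = 0.188) and Sptlc3 −0.39 (adjusted p = 0.135). With the brightest probe set of each gene alone Sptlc3 fell (−0.76). For all 5 genes both A-C/EBP arrays lay below the 4 controls. Acaca had −0.43 (adjusted p = 0.263), with overlap. The summed level of sebocyte markers, given above and weighted most by Plin2, was also lower in these arrays. Of the 11 markers 1 fell, Plin2, at 11.93 and 11.55 against 12.35 to 12.96. Krt79, at 9.29 and 9.11 against 8.84 to 10.96, and Krt7, at 10.71 and 10.05 against 10.05 to 11.14, overlapped with the controls. Their part was not tested.

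A few genes lay higher with A-C/EBP, also short of the threshold. Sgms2 was at 6.98 and 6.85 against 5.86 to 6.40 in the controls, with a log2 difference of 0.79 (SE 0.21, adjusted p = 0.1), which came from 1 probe set (1.52) and not from the other (0.06). Acer1 was at 5.09 and 5.39 against 4.33 to 4.69, with 0.75 (SE 0.17, adjusted p = 0.0626), and it passed in 5 of 18 alternative limma fits. The difference of Acer1 was 1.19 in its dimmer probe set and 0.30 in its brighter one. Elovl6 was at 5.88 and 6.21 against 5.20 to 5.65, with 0.67 (SE 0.16, adjusted p = 0.074). Aloxe3 had 0.49 (adjusted p = 0.243) and Cers6 0.39 (adjusted p = 0.473). The suprabasal keratins also lay above all controls, Krt1 at 10.21 and 10.95 against 8.38 to 9.17 and Krt10 at 8.66 and 9.33 against 7.60 to 8.10. None of the 12 keratinocyte markers passed the test here, and their part was not tested. Among the other genes that rose upon differentiation, Cers2 had 0.39 (adjusted p = 0.333), Elovl7 0.30 (adjusted p = 0.518) and Slc27a4 0.12 (adjusted p = 0.859). Fasn, Cers3, Sgms1, Fads2 and Dgat2 lay within 0.03 of the controls, at −0.02, −0.01, −0.01, −0.02 and −0.03, with standard errors of 0.24, 0.16, 0.15, 0.31 and 0.18.

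With 5-AZA, 1 of the 42 genes fell, where 0.115% of all genes fell, and none rose, where 0.17% of all genes rose (limma). At an unadjusted p under 0.05 there were 8 of the 42 (9.1% of all genes), 2 were higher and 5 lower by over 0.5 (1.89% and 2.09% of all genes), and arrays did not overlap for 12 (16.4% of all genes). The medians were −0.02 over the 42 genes and 0.04 over all genes, against the same 4 differentiated arrays, and 24 of the 42 lay within 0.25 of 0. Smpdl3b was at 7.23 and 6.99 with 5-AZA and at 9.11, 9.04, 8.05 and 8.67 in the controls. Both 5-AZA arrays were below every other array of the series, and Smpdl3b was 3.05-fold lower (−1.61, SE 0.25, adjusted p = 0.0385). Fibroblast markers (20 measured) summed to a log2 level of 12.41 to 12.95 with 5-AZA and 11.74 to 12.30 in differentiated arrays, without overlap. Melanocyte markers (11 measured) did not overlap either, at 12.61 to 12.64 with 5-AZA and 11.85 to 12.43 in differentiated arrays. The part of both lists in the 5-AZA differences was not tested. The difference of Smpdl3b was −1.97 to −1.48 over 18 alternative limma fits, but the call was lost in 11 of them. Among these was the omission of any 1 array other than differentiated replicate 3.

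Other genes of ceramide breakdown and synthesis lay on both sides of the controls with 5-AZA. Asah1, the lysosomal ceramidase, was at 9.71 and 9.39 with 5-AZA against 10.10 to 10.44, below all controls, with a log2 difference of −0.71 (SE 0.14, adjusted p = 0.0834). Smpd1, the lysosomal sphingomyelinase, was at 6.87 and 6.91 against 6.23 to 6.45, above all controls, with 0.54 (SE 0.09, adjusted p = 0.0564). Degs1 was at 10.54 and 10.34 against 10.78 to 11.02, with −0.49 (SE 0.11, adjusted p = 0.147).

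Of the 5 genes of fatty acid synthesis and desaturation none passed the test with 5-AZA. Their differences ran from −0.77 to −0.01 with a median of −0.49, where 7190 of all 18194 genes had a difference below 0. Fads2 was at 5.42 and 4.96 against 5.59 to 6.28, with a log2 difference of −0.77 (SE 0.31, adjusted p = 0.491) and differences of −0.50 or lower in all 3 of its probe sets. Scd1 was at 10.36 and 9.93 against 10.58 to 11.28, with −0.70 (SE 0.40, adjusted p = 0.669). Acaca had −0.37 (adjusted p = 0.544), and Fasn (−0.49, adjusted p = 0.61) and Fads1 (−0.01) overlapped with their controls. Dgat2 lay higher, at 9.27 and 9.17 against 8.30 to 8.93, with 0.65 (SE 0.18, adjusted p = 0.276). Elovl4 was at 10.79 and 10.55, inside and just above the range of its controls, with 0.05 (SE 0.37). Cers2 had 0.00, Sgms2 and Ugcg 0.01 and Slc27a4 −0.06.

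The arrays with A-C/EBP and with 5-AZA were also compared with each other, without use of the differentiated arrays other than for the shared spread. The A-C/EBP cells carried the transgene and were given doxycycline before its induction. Whether the 5-AZA cells did so, or came from other culture sets, is not stated. Any such difference cannot be told apart from the treatments. Of the 42 genes, 4 were higher with A-C/EBP, where 2.06% of all genes were, and none was lower, where 1.13% of all genes were (limma). At an unadjusted p under 0.05 there were 17 of the 42 (15.4% of all genes), 10 were higher and 6 lower by over 0.5 (5.34% and 4.68% of all genes), and arrays did not overlap for 24 (43.3% of all genes). Acer1, at 5.09 and 5.39 against 4.08 and 4.40, was higher by 1.00 (SE 0.20, adjusted p = 0.0265), but by 0.29 in its brighter probe set alone, where the call was lost. Elovl6, at 5.88 and 6.21 against 5.20 and 4.97, was higher by 0.96 (SE 0.19, adjusted p = 0.0257), by 1.39 and 1.40 in the brighter 2 of its 3 probe sets. Asah1, at 10.35 and 10.27 against 9.71 and 9.39, was higher by 0.76 (SE 0.16, adjusted p = 0.03). Smpdl3b, at 8.53 and 8.37 against 7.23 and 6.99, was higher by 1.34 (SE 0.29, adjusted p = 0.0386). None of the 4 genes overlapped between the treatments, and each lost its call without A-C/EBP replicate 2 or without 5-AZA replicate 2. Elovl4, at 9.66 and 8.01 against 10.79 and 10.55, had the widest gap, −1.83 (SE 0.43, adjusted p = 0.0532). Elovl5, at 8.46 and 8.38 against 8.03 and 6.99, had 0.90 (adjusted p = 0.27), and Cers6, at 8.61 and 8.59 against 8.16 and 7.42, had 0.81 (adjusted p = 0.119). The summed fibroblast markers were at 11.31 to 11.98 with A-C/EBP and, as given above, higher with 5-AZA. Their part in these differences was not tested.

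**Figure D3:**
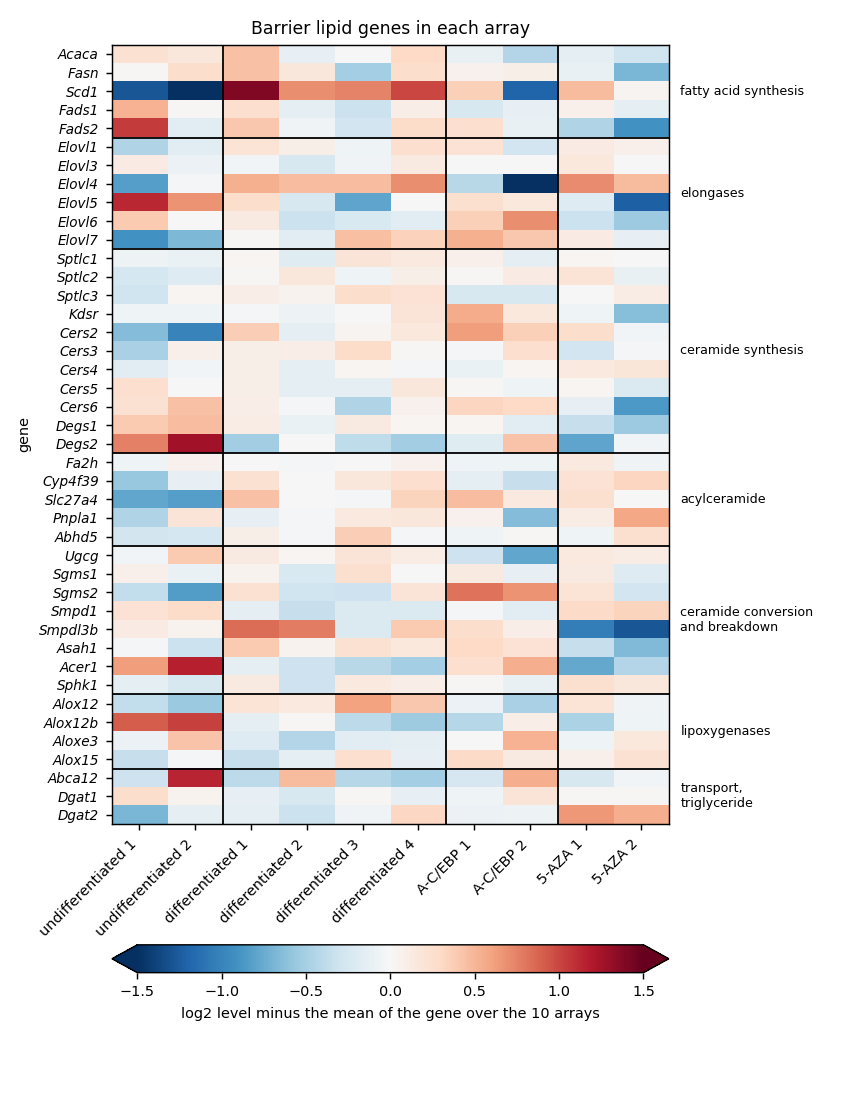
Log2 level of each of the 42 genes in each of the 10 arrays minus the mean of that gene over the arrays (colour scale, values beyond 1.5 in either direction at the end colours), with genes in rows by pathway group and arrays in columns by condition. Scd1 and Elovl7 are low in both undifferentiated arrays, Elovl4 is lowest in A-C/EBP replicate 2 (8.01), and Smpdl3b is lowest in both 5-AZA arrays.

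Within conditions, the lipid genes varied little for the most part. The median SD over the 42 genes was 0.20 in undifferentiated, 0.19 in differentiated, 0.15 in A-C/EBP and 0.17 in 5-AZA arrays. The widest spreads were an SD of 1.17 for Elovl4 and 1.10 for Scd1 with A-C/EBP, of 1.03 for Abca12 and 0.86 for Fads2 in undifferentiated arrays, and of 0.73 for Elovl5 with 5-AZA.

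Other genes of the same pathways, from lists beside the 42, were also counted, beside 6.64% of all genes that rose and 9.13% that fell upon differentiation. Upon differentiation, 5 of 32 further sphingolipid genes rose and none fell, led by Spns2, an exporter of sphingosine phosphate (6.28 and 6.42 in undifferentiated, 9.54, 8.86, 8.81 and 9.04 in differentiated arrays, log2 difference 2.71, adjusted p = 2.52e-05). Aldh3a2, the fatty aldehyde dehydrogenase mutated in Sjögren-Larsson syndrome, rose by 1.48 and Cert1, the ceramide transfer protein, by 0.69. Of 34 further fatty acid genes 6 rose and none fell, led by Hacd4, a dehydratase of fatty acid elongation (4.77 and 4.44, then 7.30, 7.31, 7.13 and 7.08, difference 2.60, adjusted p = 9.6e-06). Of 21 further acylceramide and lipoxygenase pathway genes 3 rose and 1 fell. The riser with the smallest p was Ephx3, an epoxide hydrolase (1.77, adjusted p = 4.74e-05), and the gene that fell was Sdr9c7, a dehydrogenase of oxidised acylceramide (−1.44, adjusted p = 0.00912). Of 29 triglyceride and wax ester genes 6 rose and 2 fell, among them the lipid droplet genes Cidea (3.85, adjusted p = 0.000326) and Plin2 (1.30, adjusted p = 0.000714), which rose. Of 23 lipid regulators 2 rose and 4 fell, among them Srebf1, which drives fatty acid synthesis genes (−0.60, adjusted p = 0.0226), and Insig2, which holds its precursor back (1.30, adjusted p = 0.000564).

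With A-C/EBP, 3 of the 32 further sphingolipid genes rose and none fell, beside 1.49% of all genes that rose and 0.583% that fell. Acer2, an alkaline ceramidase of the Golgi, was at 7.34 and 7.78 against 5.60 to 5.86 in the controls and rose by 1.84 (SE 0.16, adjusted p = 0.000592). Asah2, the neutral ceramidase, rose by 0.98 (adjusted p = 0.0196) and Spns2 by 0.87 (adjusted p = 0.0483). Hacd4 rose by 0.90 (adjusted p = 0.015), Acot1, an acyl-CoA thioesterase, fell by 1.86 (adjusted p = 0.0322) and Plin2 fell by 0.97 (adjusted p = 0.0225). With 5-AZA, where 0.17% of all genes rose and 0.115% fell, the lysosomal hexosaminidase subunit Hexa rose by 0.82 (adjusted p = 0.0324) and the phospholipase Pla2g4a fell by 1.06 (adjusted p = 0.0379), and no other gene of these lists passed the test.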

How the data were processed

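mRNA was measured in 10 samples. Per the labels and the submitters' processing notes, the authors ran RMA (Affymetrix Expression Console) and deposited 1 log2 value for every probe set and array, after background correction and between-array normalization. Versions of these tools are not given in the sources used here. The values were used without a second normalization. The array annotation gives a single gene symbol to 34958 of 45101 probe sets, more than 1 to 932 and none to 9211. Probe sets with a single symbol were averaged to 18194 genes. Of these probe sets 34754 matched RefSeq by gene number, which changed 0 symbols.

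All 10 arrays entered 1 fit in limma 3.58.1 (R 4.3.3) with a mean per condition, 6 residual degrees of freedom and no covariate, followed by empirical Bayes moderation. P-values are two-sided and adjusted over all 18194 genes by Benjamini-Hochberg in each of 4 contrasts, and "rose" or "fell" means an adjusted p under 0.05. The fit was tested on simulated data. Each of these settings was tried alone: centring arrays on their median, quantile normalization, taking the brightest probe set of a gene, and dropping probe sets that may match more than 1 transcript. So were dropping the dimmest 40% of genes, a variance trend with intensity, the replicate number as a block, and fitting just the pair of compared conditions. Further settings were leaving out every array in turn, a t-test for each gene with equal variances, and a log2 threshold of 0.5 with no test.

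The 42 genes and the other lists were chosen with earlier results of these data known. Values in every array are given for the genes that passed and the 3 largest differences per contrast among those that did not. Up to 4 genes per further list are named, by adjusted p. Both A-C/EBP arrays carry number 2 in a label, and the numbers of their titles were used. Other assays of the study are not analysed here.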

Additional observations from a re-analysis of the deposited data

Results flagged for a closer look

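Among the 4 differentiated arrays, replicate 2 stood apart from the others for 3 of the 42 lipid genes, by a gap to its nearest neighbour larger than Dixon's 95% critical value for 4 values. Sphk1 was at 4.28 there and at 4.69 to 4.73 in the other arrays, where it lies near the median probe set. Aloxe3 was at 6.08 there and at 6.32 to 6.37 elsewhere. Abca12 was at 5.70 there and at 4.72 to 4.83 elsewhere. Chance flags about 1 in 20 such groups of arrays, and 42 genes were looked at. Differentiated replicate 2 also had the lowest maximum over all probe sets, 13.67 against 14.42 to 14.58 in the other arrays.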

How the results depend on the processing

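Of the values of single lipid genes under the alternatives, 443 kept their direction and side of the threshold, 71 no longer passed, 21 passed newly and 1 reversed, Abca12 upon differentiation, at 0.09 without undifferentiated replicate 2 (−1.36 to 0.09 without each array in turn). Upon differentiation, the t-test for each gene after Benjamini-Hochberg gave 1 rising and 0 falling genes. The calls lost without single arrays are given above by gene. With A-C/EBP, 1 gene rose without the dimmest 40% of genes, with an intensity trend and with only the 2 compared conditions (Acer1 in each case), 3 rose by the t-test unadjusted, 3 were higher by over 0.5, and 0 to 1 rose without each array in turn. Genes falling with A-C/EBP numbered 0 with median centring, 2 with quantile normalization, 2 with the brightest probe set, 0 with only the 2 compared conditions, 5 by the t-test unadjusted, 0 by it after adjustment, 4 by over 0.5, and 0 to 3 without each array in turn. With 5-AZA, 1 rose with quantile normalization, 2 by the t-test unadjusted, 2 by over 0.5, and 0 to 0 without each array in turn. Genes falling with 5-AZA numbered 0 with median centring, 2 with quantile normalization, 0 with only the 2 compared conditions, 4 by the t-test unadjusted, 0 by it after adjustment, 5 by over 0.5, and 0 to 1 without each array in turn. Genes differing between A-C/EBP and 5-AZA numbered 2 with median centring, 7 with quantile normalization, 1 with only these conditions, 8 by the t-test unadjusted, 0 by it after adjustment, 16 by over 0.5, and 0 to 4 without each array in turn. The cause of these shifts was not tested.

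Arrays of the same number deviated together at r = 0.09 to 0.43 over 12 pairs, the lowest being differentiated with 5-AZA replicate 2. In conditions of 2 arrays the deviations mirror each other, so the 24 other pairs (−0.56 to 0.56) add little. 5-AZA replicate 1 correlated best with differentiated replicate 4 (0.45) and 5-AZA replicate 2 with differentiated replicate 3 (0.56). The labels tie the numbers to no shared litter or day, so the samples were taken to share a number only. With a replicate block, which leaves 3 residual degrees of freedom, 8 genes rose and 6 fell upon differentiation, 1 rose and 2 fell with A-C/EBP (Sgms2, and Scd1 with Smpdl3b), 0 rose and 2 fell with 5-AZA (Smpdl3b and Asah1), and 8 differed between A-C/EBP and 5-AZA. It no longer called Elovl4 (adjusted p = 0.0805) and Spns2 (adjusted p = 0.084) with A-C/EBP or Cyp4f39 upon differentiation (adjusted p = 0.108), and Sgms2, Smpdl3b and Asah1 rose upon differentiation.

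Over all genes, calls with A-C/EBP were 271 higher and 106 lower, 195 higher and 85 lower with median centring and 336 and 201 with quantile normalization. Genes near or below the median probe set (Acer1, Alox12, Alox12b and Sphk1) are limited by background, and 2 arrays per condition limit every comparison. The omission of A-C/EBP replicate 2 left 48 genes higher and 8 lower with A-C/EBP.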
